A study of Mus musculus with 4 samples.

Results

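The ATG8 family and the selective autophagy receptors were followed in single cells of mouse pancreatic ductal adenocarcinoma, a cancer of the pancreatic duct. The members were 10 genes taken by symbol from the 32285 features of the gene table: the ATG8 genes Map1lc3a, Map1lc3b, Gabarap, Gabarapl1 and Gabarapl2, the cargo receptor genes Sqstm1, Nbr1 and Optn, and the mitophagy receptor genes Bnip3 and Bnip3l. Each symbol matched 1 feature.

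In autophagy, a double membrane closes around cargo and then fuses with a lysosome, where the cargo is broken down. ATG8 proteins are coupled to the lipid of that membrane, and receptors bind them through a short peptide motif while holding the cargo with another part of the protein. Pancreatic ductal tumours are known for high basal autophagy, and the ATG8 proteins and p62, the product of Sqstm1, are themselves degraded with the cargo, so protein levels and RNA levels need not move together.

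There were 4 droplet libraries (10x Genomics), 1 for each group, and each pooled tissue of 3 animals. GPH stands for gemcitabine, paricalcitol and hydroxychloroquine in the series' design text. The group was read from the sample's title, since its treatment label names it GnP-H and breaks off after 60 mg per kg of G given into the peritoneum. What GnP stands for is not given there, so whether GPH animals received a further drug beyond those of PH and G cannot be told. PH animals received paricalcitol, a ligand of the vitamin D receptor, with hydroxychloroquine, a drug that blocks the breakdown of cargo in lysosomes. G animals received gemcitabine, a nucleoside analogue, and control animals received PBS. The strain, age and tumour model were not given in the labels, and a pool has no measured spread between its animals. With 1 library a group no test between conditions was possible, so no p-value is given: 95% intervals cover counting error only, and differences are counted by size at 1.5-fold. A gene counts as measured at 20 CPM or more in 1 of the 2 libraries compared. A gene under 20 CPM in 1 of them is thus measured only through the other, where it is higher. The shares over all genes use the same filter. Levels are in CPM (counts per 1e6): the UMIs of a gene (unique molecular identifiers, which count captured RNA molecules) divided by all UMIs of the class in that library.

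The libraries held 7918 to 18589 barcodes and 143298547 to 190110092 UMIs. Mitochondrial genes took over 20% of the UMIs in 41.0% of GPH barcodes, 12.7% in PH, 15.6% in G and 15.6% in control. After filtering, 4411 cells of GPH, 13977 of PH, 12449 of G and 10074 of control were kept, at median depths of 20103, 7862, 4610 and 9635 UMIs. Between 17 and 79 barcodes were shared by any pair of libraries.

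Cells were grouped by marker genes. Vimentin-high cells (Vim at 3653 to 4433 CPM) numbered 1510 in GPH, 10803 in PH, 2074 in G and 7983 in control. Vim was not particular to them: it was at 2493 to 3919 CPM in macrophage-like and 2545 to 3756 in fibroblast-like cells. Vimentin-high cells carried Cdkn2a, a cell cycle inhibitor gene, at 829 to 1223 CPM. It was at 20.8 to 113 CPM in macrophage-like cells, 44.3 to 504 in fibroblast-like cells, and 227 and 289 in keratin-high cells of G and GPH. That the vimentin-high cells are tumour cells was not tested. Keratin-high cells, with Krt19 at 4579 CPM in GPH and 2916 CPM in G, numbered 2119 in GPH and 1318 in G, against 3 in PH and 1 in control, so this class has no contrast with control. In vimentin-high cells, 3 Y-linked genes (Eif2s3y, Kdm5d and Uty) summed to 11.8 CPM in GPH, 0.451 in PH, 8.57 in G and 0.0763 in control. The source of these cells and the treatment cannot be told apart. PH and G were each set against control in macrophage-like, T cell-like and NK cell-like cells. GPH held 48, 52 and 13 of them, too few for a ratio. Neutrophil-like and fibroblast-like cells are given as levels only.

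The members lie on 6 chromosomes, and Gabarap, Sqstm1 and Nbr1 share chromosome 11. Coordinates come from GENCODE vM21 (mm10). The 250 bases upstream of each gene were matched by symbol in a RefSeq table (GRCm38.p6) for 8 of the 10 members. The windows of Bnip3 and Sqstm1 are printed because these genes had the lowest and the highest ratio of GPH to control in vimentin-high cells. They were trimmed to end just before the annotated start (chr7:138909520-138909756 and chr11:50210828-50211070, both read 5′ to 3′ on the minus strand). Capitals mark ACGTG or GCGTG on either strand, the core that hypoxia-inducible factors are known to bind.
Bnip3 promoter: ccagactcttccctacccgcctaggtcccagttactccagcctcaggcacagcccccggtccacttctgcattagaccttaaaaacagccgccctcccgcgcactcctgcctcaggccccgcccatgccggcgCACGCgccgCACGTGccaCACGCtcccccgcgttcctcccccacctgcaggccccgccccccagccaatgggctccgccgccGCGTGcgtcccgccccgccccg
Sqstm1 promoter: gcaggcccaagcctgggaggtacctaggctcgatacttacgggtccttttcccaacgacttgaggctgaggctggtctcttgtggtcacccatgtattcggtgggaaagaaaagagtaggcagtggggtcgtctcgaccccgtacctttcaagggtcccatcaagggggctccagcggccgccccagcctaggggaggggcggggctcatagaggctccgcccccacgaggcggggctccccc
The Bnip3 window held 5 matches, of which 2 are the same CACGTG read on both strands, and the Sqstm1 window held 0. Other members held them too: the window of Map1lc3b, a gene under 1.5-fold in every comparison, also had 5, that of Optn 2, and those of Gabarap, Gabarapl2 and Nbr1 1 each, while Gabarapl1 had 0. Over 32851 upstream windows of 250 bases, ACGTG was found in 16.6% and GCGTG in 28.2%. The letters TGANNNNGC, a loose form of the element that the oxidative stress factor NRF2 binds, were in 35.2% of windows and in neither window printed here. A match describes the letters and does not show that a factor binds there.

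In vimentin-high cells, PH had 4 of 9 measured members at least 1.5-fold lower than control and 0 higher, where 8.54% of 4616 measured genes were lower, 7.54% higher and 16.1% either. The 4 were Map1lc3a, Gabarap, Gabarapl2 and Bnip3. G had 3 of 9 lower than control (Map1lc3a, Gabarapl1 and Bnip3) and 0 higher, where 6.63% of genes were lower, 5.29% higher and 11.9% either. GPH had 1 of 9 higher (Sqstm1) and 1 lower (Bnip3) than control, where 22.4% of genes were higher, 9.28% lower and 31.7% either. Optn was under the limit of 20 CPM for a measured gene in these cells. The median log2 ratio of the members was 0.06 in GPH, -0.20 in PH and -0.37 in G against control, beside medians over all measured genes of 0.16, 0.01 and -0.05. The comparisons share the control library, so each is given with its own values.

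GPH was also set against PH and G. Against PH, 2 of 9 members were higher (Gabarap and Sqstm1) and 2 lower (Bnip3 and Bnip3l), where 19.5% of genes were higher, 6.88% lower and 26.4% either. Against G, 3 of 9 were higher (Gabarapl1, Sqstm1 and Nbr1) and 1 lower (Bnip3), where 21.8% of genes were higher, 7.33% lower and 29.1% either. Median log2 ratios of the members were 0.36 against PH and 0.35 against G, beside 0.12 and 0.22 over all measured genes. The shares of higher genes in GPH comparisons are read with a shift of all genes: the median ratio lay 0.12 to 0.22 above 0 on the log2 scale in vimentin-high cells and 0.24 above 0 in keratin-high cells. The map of log2 ratios shows all 12 comparisons.

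**Figure D1:**
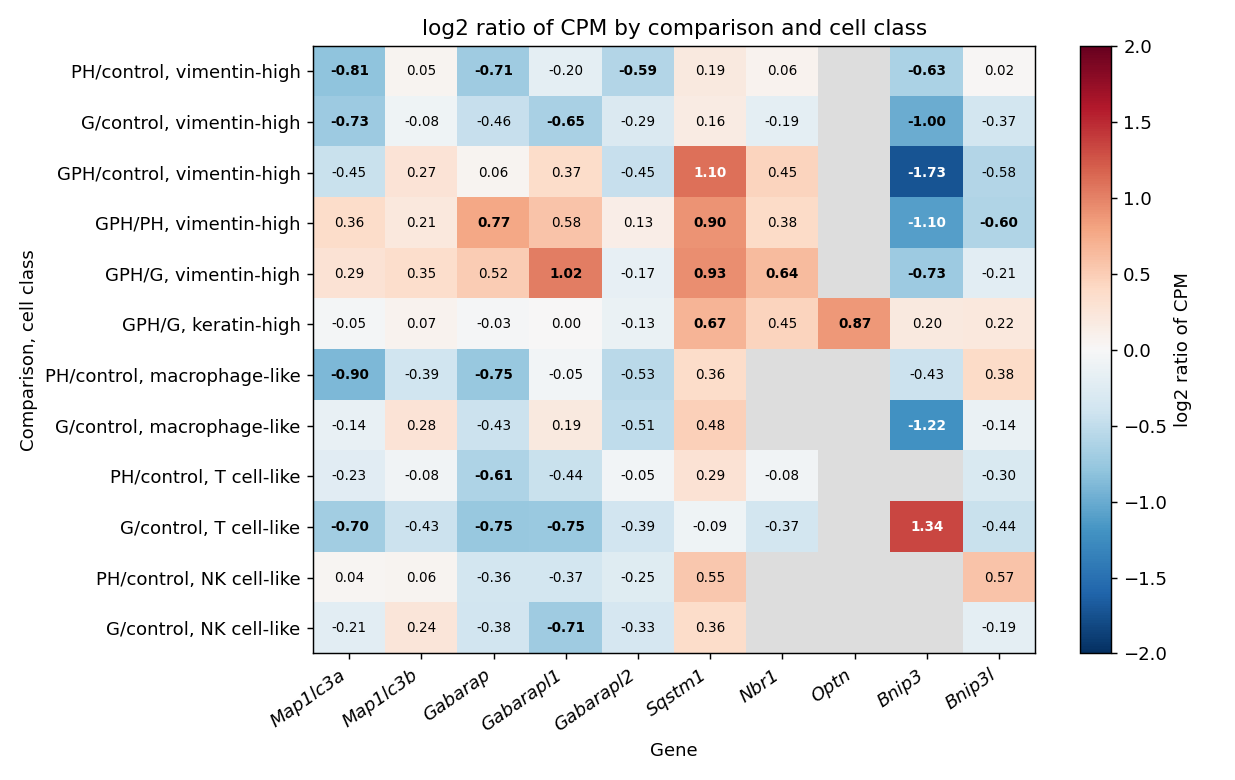
Colour and printed value give the log2 ratio of CPM for each member (columns) in each comparison and cell class (rows), with values at least 1.5-fold apart in bold and genes under 20 CPM in both libraries in grey. Bnip3 is blue in every vimentin-high comparison and red in T cell-like cells of G against control, and Sqstm1 is red in the 3 vimentin-high comparisons of GPH and in the keratin-high one.

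Map1lc3a encodes LC3A, 1 of the LC3 branch of ATG8 proteins (chromosome 2, 155276297 to 155278073, plus strand). It was at 129 CPM in vimentin-high cells of GPH, 100.4 in PH, 106 in G and 176 in control, so control was the highest of the 4. PH was 1.75-fold lower than control (95% interval 1.71 to 1.79) and G 1.66-fold lower (1.60 to 1.73). GPH was 1.36-fold lower, under the size counted, but passed it in 2 of 12 alternatives: its log2 ratio was -0.45 pooled and -0.75 with vimentin-high clusters at equal weight. At equal weight the log2 ratio of PH to control moved to -0.56, under 1.5-fold, from -0.81 with all cells pooled.

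Map1lc3b encodes LC3B, the ATG8 protein most often used as an autophagosome marker (chromosome 8, 121590361 to 121598760, plus strand). In vimentin-high cells it was at 289 CPM in GPH, 250.01 in PH, 228 in G and 241 in control. All ratios stayed under 1.5-fold, and the largest, GPH over G, was 1.27 (1.23 to 1.31). Transcripts of 13 other genes are nearly identical to it over at least 90 bases, so its level is uncertain.

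Gabarap, founder of the GABARAP branch (chromosome 11, 69991143 to 69994951, plus strand), was at 897 CPM in vimentin-high cells of GPH, 526 in PH, 628 in G and 860.4 in control. GPH and control thus lay close together, with PH and G below both. PH was 1.64-fold lower than control (1.62 to 1.65), and GPH was 1.71-fold higher than PH (1.68 to 1.73). That second log2 ratio was 0.77, and 0.46, under 1.5-fold, with clusters at equal weight. G was 1.37-fold lower than control (1.35 to 1.39), under the size counted.

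Gabarapl1 (chromosome 6, 129533160 to 129542346, plus strand) encodes another GABARAP protein and is a known target of FOXO factors. It was at 66.7 CPM in GPH, 44.8 in PH, 32.9 in G and 51.5 in control. G was the lowest, 1.57-fold under control (1.46 to 1.68), and GPH was 2.03-fold higher than G (1.87 to 2.20). Assigning each cell by its own markers brought the log2 ratio of G to control to -0.57, just under the size counted.

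Gabarapl2 encodes GATE-16 (chromosome 8, 111940703 to 111953612, plus strand). It was at 208 CPM in GPH, 189 in PH, 233 in G and 285 in control, so all 3 treated libraries were below control. PH was 1.503-fold lower (1.48 to 1.53), on the edge of the size counted, and it passed that size in 5 of 12 alternatives. These 5 include the setting without a filter on low values, which cannot change a ratio. The level plot shows these values for vimentin-high and keratin-high cells.

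**Figure D2:**
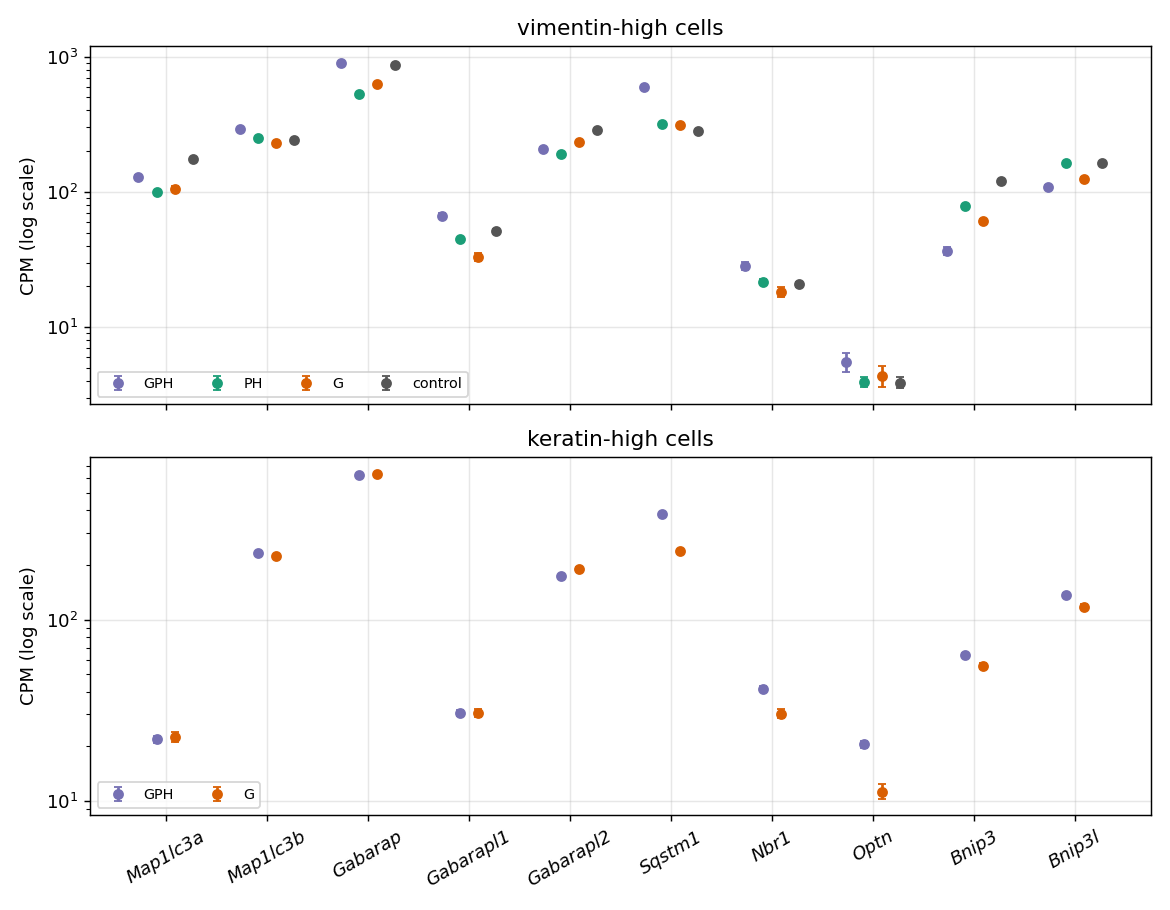
Points give CPM on a log axis with exact Poisson 95% intervals (counting error only) for the 10 members in vimentin-high cells of the 4 libraries (top) and keratin-high cells of GPH and G (bottom). Sqstm1 of GPH stands above the other libraries in both panels, and Bnip3 of GPH stands lowest at 36.5 CPM in vimentin-high cells but at 63.5 CPM in keratin-high cells.

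Sqstm1 encodes p62, which carries ubiquitin-tagged protein into autophagosomes and also holds KEAP1, the inhibitor of NRF2 (chromosome 11, 50199366 to 50210827, minus strand). It was at 598 CPM in vimentin-high cells of GPH, 319 in PH, 313 in G and 279.5 in control. GPH stood apart, while the other 3 libraries lay closer together, with PH 1.14-fold over control. GPH was 2.14-fold higher than control (2.10 to 2.18), 1.87-fold higher than PH (1.84 to 1.91) and 1.91-fold higher than G (1.86 to 1.96).

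The size of the Sqstm1 difference depended on how the clusters of the class were counted. Vimentin-high cells lay in 7 clusters, made from 2000 variable genes that included 0 of the members, and Sqstm1 was highest in cluster 2 in every library. Cluster 2, led by Rarres2, Ptn, Has2 and the haem oxygenase gene Hmox1, held 55.2% of the vimentin-high cells of GPH (95% interval 52.7 to 57.8), 0.926% in PH, 17.8% in G and 2.33% in control. Within cluster 2, Sqstm1 was at 739 CPM in GPH, 719.6 in PH, 621 in G and 695 in control, so the libraries lay close together there. The clusters were made from these same cells, and genes that vary with Sqstm1 may have shaped them. Likeness within cluster 2 is therefore a description only.

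Outside cluster 2 the libraries differed by cluster. In the cycling cluster 4, led by Pimreg and Cenpf, Sqstm1 was at 483 CPM in GPH, 202 in PH, 255 in G and 221 in control. In cluster 5, led by Clca3a1 and Fn1, it was at 52.0 CPM in GPH (20 UMIs in 97 cells), 142 in PH, 76.3 in G and 184 in control. GPH was therefore highest in cluster 4 and lowest in cluster 5. Over the 6 clusters with at least 50 cells in both libraries, GPH was higher than control in 5 and lower in 1, with log2 ratios of -1.82 to 1.13. The log2 ratio of GPH to control was 1.10 with cells pooled, 0.64 without cluster 2 and 0.26 with clusters at equal weight, the last of which is under 1.5-fold. Against PH it was 0.90 pooled, 0.41 without cluster 2 and 0.23 at equal weight, and against G 0.93, 0.73 and 0.41. In all comparisons of GPH, equal weight used only those 6 clusters and left out cluster 3, which had 38 cells of GPH. Cluster 3 held 24.1% of the vimentin-high cells of control and their lowest Sqstm1, at 178 CPM. Of the 9 fibroblast markers, 5 were at least 2-fold above the other clusters in cluster 2. The same 5 were so in cluster 0, which held 18.7% of the vimentin-high cells of GPH, 5.93% in PH, 22.2% in G and 35.1% in control. The 9 markers summed to 1375 CPM in vimentin-high cells of GPH, 473 in PH, 803 in G and 726 in control, with 0 of them at 0 in any library. Their part in the Sqstm1 difference was not tested. Clusters of 1 library are not replicates.

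**Figure D3:**
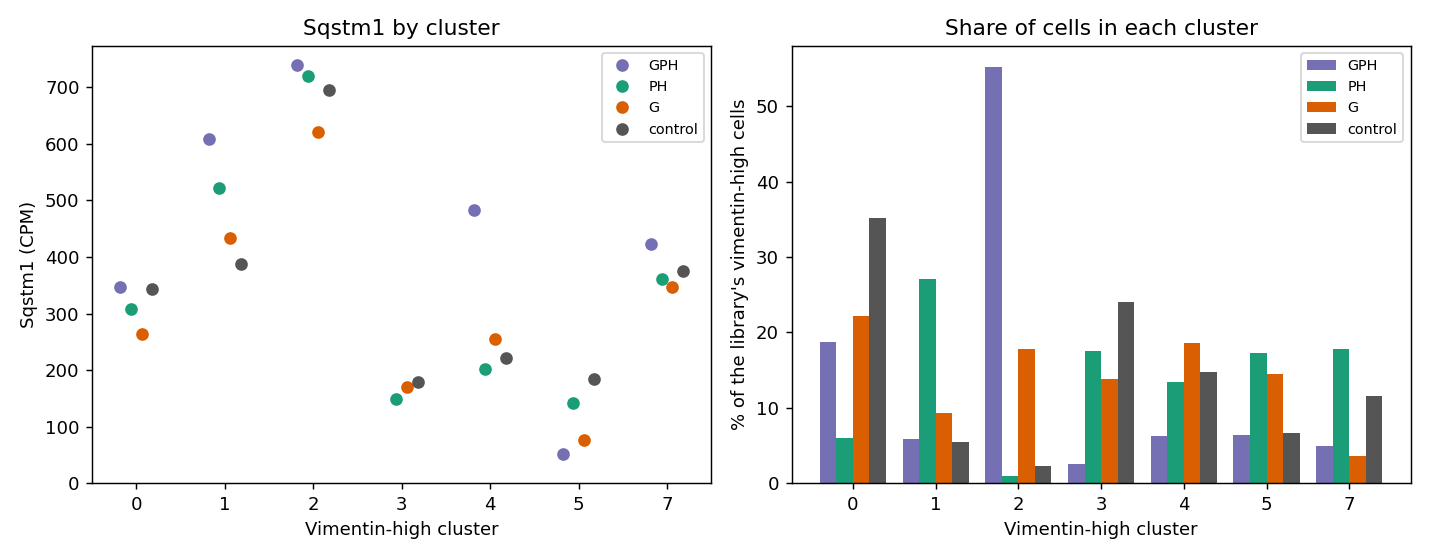
Left, Sqstm1 in CPM in each vimentin-high cluster with at least 50 cells in the library; right, the share of each library's vimentin-high cells in that cluster. Sqstm1 lies between 621 and 739 CPM in cluster 2 of all 4 libraries, and cluster 2 holds 55.2% of the cells of GPH but 0.926% to 17.8% of the others.

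Nbr1 encodes a relative of p62 that also binds ubiquitin-tagged cargo (chromosome 11, 101552149 to 101581951, plus strand). It was at 28.3 CPM in GPH, 21.7 in PH, 18.2 in G and 20.8 in control. GPH was the highest and G the lowest, 1.56-fold apart (1.39 to 1.75). That log2 ratio was 0.64 pooled, 0.42 after scaling by the median ratio of all genes and 0.25 with clusters at equal weight. Nbr1 was under 20 CPM in G, so it was measured in that comparison only through GPH.

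Optn encodes optineurin, a receptor for damaged mitochondria and bacteria (chromosome 2, 5020642 to 5064051, minus strand). In vimentin-high cells it was at 5.53 CPM in GPH, 3.93 in PH, 4.32 in G and 3.89 in control, under the level at which a ratio was counted. In keratin-high cells it was at 20.5 CPM in GPH and 11.3 in G, 1.82-fold apart (1.65 to 2.02). It kept at least 1.5-fold in all 10 alternatives run for that class. It reached 20 CPM only in GPH, so it was measured only through the library where it was higher.

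Keratin-high cells of GPH had 2 of 10 members at least 1.5-fold higher than G, Sqstm1 and Optn, and 0 lower, where 18.8% of 4915 genes were higher, 3.46% lower and 22.3% either. Optn entered this count only through GPH. Sqstm1 was at 379.9 CPM in GPH and 238 in G, 1.59-fold apart (1.56 to 1.63). Scaling by the median ratio of all genes took its log2 ratio to 0.43, under 1.5-fold, from 0.67. The median member ratio was 0.13 on the log2 scale, beside 0.24 over all genes. The ATG8 genes lay close together: Gabarap was at 624 CPM in GPH and 636 in G, and Map1lc3a at 21.9 and 22.7.

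Bnip3 encodes a receptor in the outer mitochondrial membrane that recruits ATG8 proteins, and it is a textbook target of hypoxia-inducible factors (chromosome 7, 138890836 to 138909519, minus strand). It was at 36.5 CPM in vimentin-high cells of GPH, 78.0 in PH, 60.5 in G and 121 in control. All treated libraries were below control and GPH was the lowest. GPH was 3.31-fold lower than control (3.11 to 3.53), G 1.998-fold lower (1.90 to 2.10) and PH 1.55-fold lower (1.51 to 1.59).

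GPH was 2.14-fold lower than PH (2.003 to 2.28) and 1.66-fold lower than G (1.53 to 1.79) for Bnip3. Within single vimentin-high clusters, Bnip3 was lower than control in 6 of 6 clusters of GPH, 7 of 7 of PH and 7 of 7 of G, with log2 ratios of -2.16 to -0.34, -1.31 to -0.09 and -1.26 to -0.36. Against PH and G, GPH was lower in 5 of 6 clusters each, with log2 ratios of -1.72 to 0.67 and -1.34 to 0.02. The exception against PH was cluster 7, at 103 CPM in GPH and 64.8 in PH, more than 1.5-fold higher. With clusters at equal weight the log2 ratio was -1.38 against control and -0.49 against PH, the second under 1.5-fold. Without cluster 2 it was -0.35 against G, also under 1.5-fold. All 12 alternatives kept each of the 3 ratios to control at 1.5-fold or more. Among them, the setting without a filter on low values cannot change a ratio.

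A small set of shallow vimentin-high cells, left out of the class for depth, had Bnip3 among its leading genes. In this cluster 9, led by Angptl6, Ero1l and P4ha2, Bnip3 was at 103 CPM in 74 cells of GPH, 189 in 95 cells of PH and 484 in 275 cells of control. With every cluster left out for depth added to the class (6, 9 and 15), the log2 ratio of GPH to control was -1.81. That value is therefore not of cluster 9 alone: in cluster 6 Bnip3 was at 17.4 CPM in 422 cells of GPH and 52.0 in 402 of control.

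Bnip3l encodes NIX, the paralogue of BNIP3 that clears mitochondria in maturing red cells (chromosome 14, 66985239 to 67008877, minus strand). It was at 108 CPM in GPH, 164 in PH, 125 in G and 162 in control. PH and control lay together, with GPH lowest. GPH was 1.52-fold lower than PH (1.46 to 1.58) and 1.497-fold lower than control (1.44 to 1.56), the second just under the size counted. The ratio to PH kept 1.5-fold in 8 of 12 alternatives.

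Map1lc3a was lower than control in 6 of 6 clusters of GPH, 7 of 7 of PH and 7 of 7 of G. By at least 1.5-fold it was lower in 5, 3 and 4 of them. Gabarap was lower in 7 of 7 clusters of PH (log2 ratios of -0.78 to -0.53) and 7 of 7 of G (-0.69 to -0.33), and in 5 of 6 of GPH. In cluster 0, led by Mfap4 and Acta2, Map1lc3a was at 175 CPM in GPH, 187 in PH, 177 in G and 294 in control. Gabarapl1 was higher in GPH than in G in 6 of 6 clusters, 5 of them by at least 1.5-fold.

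**Figure D4:**
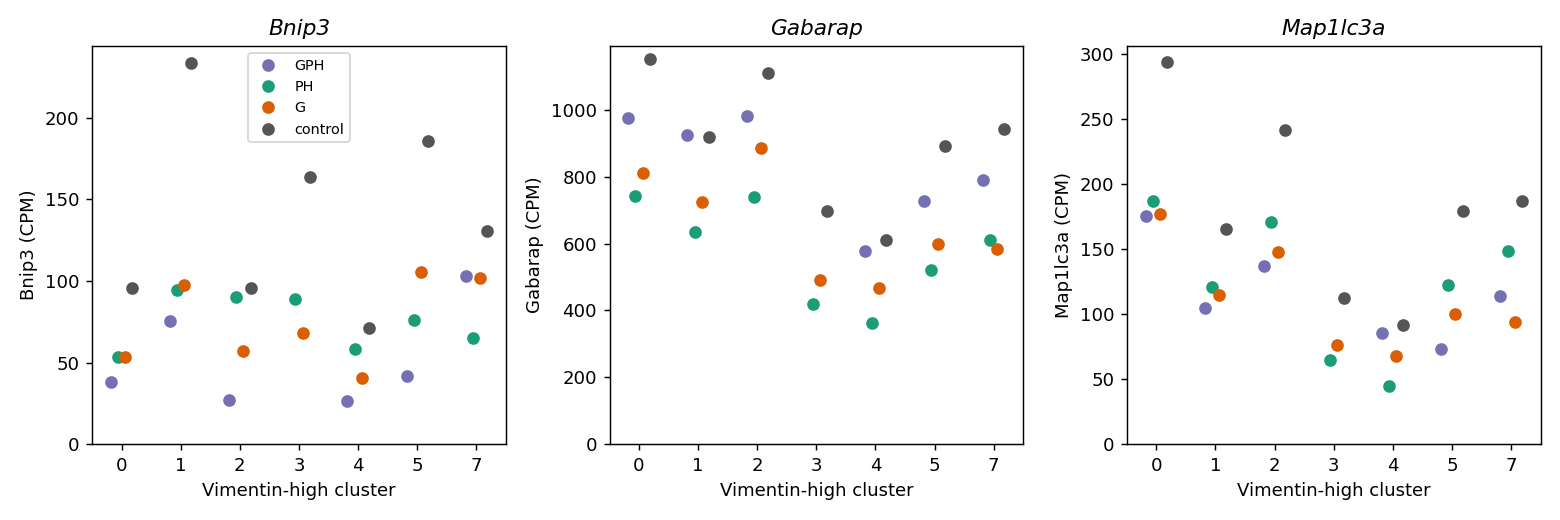
CPM of Bnip3, Gabarap and Map1lc3a in each vimentin-high cluster with at least 50 cells in the library. The control point is the highest of its cluster for Bnip3 and Map1lc3a in all 7 clusters, and for Gabarap in all but cluster 1, where GPH is at 926 CPM and control at 919 CPM.

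The other autophagy genes were counted from lists of the pathway's steps, and few of them reached 20 CPM in vimentin-high cells. Values of list genes here and below are of all cells of a class pooled. The part of cluster 2 in them was not tested. For reading the counts, 22.4% of all measured genes were higher and 9.28% lower in GPH against control, 19.5% and 6.88% in GPH against PH, 21.8% and 7.33% in GPH against G, 7.54% and 8.54% in PH against control, and 5.29% and 6.63% in G against control. Of the 6 initiation genes 2 were measured in PH against control, and 1 was higher. This was Rb1cc1, a scaffold of the ULK1 kinase complex, at 34.9 CPM in PH against 22.9 in control.

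Of the 13 genes of the phosphatidylinositol kinase complex and phagophore growth, 4 were measured in GPH against control and 2 were higher. These were Uvrag, a subunit of the kinase complex, at 25.0 CPM in GPH and 12.8 in control, and Wipi2, which reads the lipid it makes, at 41.3 and 27.2 CPM. Both were also higher in GPH than in PH (Uvrag 15.2 CPM, Wipi2 26.1 CPM in PH) and in G (11.99 and 26.1 CPM). Wdr45b, a relative of Wipi2, was at 69.1 CPM in GPH, 39.4 in PH, 33.5 in G and 54.9 in control, so it was higher in GPH than in PH and G and lower in G than in control. That made 3 of 5 measured genes higher against PH, 3 of 4 against G, and 1 of 3 lower in G against control. Uvrag reached 20 CPM in GPH alone, so it entered each count of GPH only through the library where it was higher.

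Of the 10 ATG8 conjugation genes 2 were measured. Both were higher in GPH than in PH: Atg3, the enzyme that passes ATG8 to lipid, was at 49.0 CPM in GPH and 32.1 in PH. Atg12, the ubiquitin-like part of the conjugating complex, was at 31.6 CPM in GPH, 20.6 in PH, 19.4 in G and 29.5 in control, higher in GPH than in G and lower in G than in control. Atg12 was under 20 CPM in G, so it entered both comparisons with G only through the other library.

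Of 14 other cargo receptors and adaptors, 10 were measured in GPH against control and 3 were higher, with a median log2 ratio of 0.38. Ncoa4, the ferritin receptor, was at 36.9 CPM in GPH and 22.0 in control. Retreg1, a receptor for the endoplasmic reticulum, was at 27.8 and 16.5 CPM, and Ccpg1, another one, at 23.5 and 14.2 CPM. Against PH, 1 of 10 was higher, Retreg1 (18.3 CPM in PH). Against G, 3 of 10 were higher: Ncoa4 (23.3 CPM in G), Ccpg1 (13.7) and Calcoco1 (33.2 CPM in GPH, 18.9 in G). In these comparisons Retreg1, Ccpg1 and Calcoco1 were under 20 CPM in the other library, so they were counted only through GPH, where they were higher. In PH, 1 of 8 was lower than control: Fkbp8, a mitochondrial receptor that binds LC3A, had 76.3 CPM in PH cells, against 123 in control. Of 10 genes of fusion with lysosomes 2 were measured, and Rab7, the small GTPase of late endosomes, was at 119 CPM in GPH, 73.6 in G and 74.5 in control, higher in GPH than in both.

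Targets of NRF2 are listed because Sqstm1 is a known target of that factor. In vimentin-high cells 7 of 10 were measured in GPH against control, all 7 were at least 1.5-fold higher, where 22.4% of all genes were, and their median log2 ratio was 1.89. Hmox1 was at 605 CPM in GPH, 60.0 in PH, 136 in G and 102 in control, highest in the library with the most cells of cluster 2. Hmox1 is a leading gene of that cluster, so this match is no separate result. Srxn1, which repairs peroxiredoxins, was at 58.4 CPM in GPH and 15.7 in control. Slc7a11, the cystine importer, was at 51.6 CPM in GPH, 69.1 in PH, 25.7 in G and 11.997 in control. Srxn1 and Slc7a11 were under 20 CPM in control, so both were measured against it only through GPH, where they were higher. The same held for Slc7a11 in PH and in G against control. Nfe2l2, which encodes NRF2, was at 296 CPM in GPH and 139 in control. In PH 3 of 6 measured targets were higher and 1 lower than control, beside 7.54% and 8.54% of all genes. In G 2 of 6 were higher, beside 5.29%. In these 2 comparisons Sqstm1 itself had log2 ratios of 0.19 and 0.16. In keratin-high cells 2 of 9 were higher in GPH than in G and 0 lower, close to the 18.8% of all genes that were higher.

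Hypoxia targets are listed because Bnip3 is one of the genes that factor is known to induce; Bnip3 is not in the list. Of 12 measured in vimentin-high cells, 5 were lower and 0 higher in PH (median log2 ratio -0.46), and 5 were lower and 0 higher in G (median -0.47). Of all genes, 8.54% were lower in PH and 6.63% in G. Ankrd37, one of the most oxygen-responsive, was at 15.4 CPM in PH, 15.5 in G and 35.4 in control. It was under 20 CPM in every treated library, so it was measured only through control, where it was higher. In GPH the list was split, with 3 of 12 higher and 5 lower than control and a median of -0.39, beside 22.4% of all genes higher and 9.28% lower. Ankrd37 was at 9.05 CPM in GPH and the lactate dehydrogenase gene Ldha at 568 CPM in GPH and 1010 in control. Hk2, a hexokinase, was at 1102 CPM in GPH and 427 in control, and Ndrg1 at 360.2 and 153. Bnip3 was thus on the side of Ankrd37 and Ldha, opposite to Hk2 and Ndrg1. How far hypoxia or NRF2 account for the members' levels was not tested. Of 5 transcription factors of the TFEB and FOXO families, 3 were measured in GPH against control and 2 were higher, Tfe3 at 21.7 CPM in GPH and 11.4 in control and Foxo1 at 22.1 and 11.99. Both were measured only through GPH, where they were higher, so the filter nearly fixed their direction. In PH and in G against control, 0 of the 5 were measured.

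Macrophage-like cells of PH had 2 of 8 measured members lower than control and 0 higher, where 12.3% of 5014 genes were lower, 14% higher and 26.3% either. Map1lc3a was at 25.5 CPM in PH (80 UMIs) and 47.5 in control (102 UMIs), 1.86-fold lower (1.37 to 2.53). Gabarap was also lower in PH: it had 545 CPM, against 919 in control, 1.69-fold lower (1.58 to 1.80). Assigning each cell by its own markers turned the Map1lc3a log2 ratio to 0.12 and took that of Gabarap to -0.55, under 1.5-fold. The median over members was -0.41 on the log2 scale, beside -0.03 over all genes.

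Macrophage-like cells of G had 1 of 8 members lower than control and 0 higher, where 20.6% of genes were lower, 18.3% higher and 38.9% either. It was Bnip3, at 44.5 CPM in G and 103 in control, 2.32-fold lower (1.96 to 2.75), and it kept at least 1.5-fold in all 9 alternatives. Hypoxia targets in these cells had 6 of 11 lower and 1 higher, with Aldoa, a glycolytic enzyme gene, at 534 CPM in G and 1263 in control. Sqstm1 was at 200.1 CPM in G and 143 in control, 1.40-fold apart (1.24 to 1.58). The members' median was -0.14, beside -0.07 over all genes.

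T cell-like cells of PH had 1 of 8 members lower and 0 higher than control, where 14.3% of genes were lower, 8.89% higher and 23.2% either. It was Gabarap, with 265 CPM in PH and 406 in control, 1.53-fold lower (1.31 to 1.78), and it passed that size in 5 of 10 alternatives. In G, 3 of 9 were lower and 1 higher, where 17% of genes were lower, 11.1% higher and 28% either. Gabarap was at 241 CPM in G and 406 in control, 1.68-fold lower (1.52 to 1.86). Gabarapl1 was at 28.4 CPM in G and 47.8 in control, 1.68-fold lower (1.22 to 2.26), and Map1lc3a at 29.4 and 47.8 CPM, 1.62-fold lower (1.18 to 2.19). The last passed 1.5-fold in 8 of 10 alternatives. The members' median log2 ratio was -0.16 in PH and -0.43 in G, beside -0.08 and -0.07 over all genes. T cell-like cells lay in clusters 12 and 20. Cluster 20, led by Foxp3 and Tnfrsf4, held 714 of 2896 such cells in G, 18 of 368 in control and 19 of 372 in PH. Its part in these ratios was not tested.

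Bnip3 was the member higher in T cell-like cells of G, at 22.2 CPM (314 UMIs) against 8.78 in control (9 UMIs), 2.53-fold apart (1.31 to 5.57). It was under 20 CPM in control, so it was measured only through G. Assigning each cell by its own markers turned its log2 ratio to -0.35 from 1.34. Krt19, a ductal gene that T cells lack, was at 17.1 CPM in T cell-like cells of G and 1.95 in control. The 11 ductal markers summed to 154 CPM in G and 112 in control there, with 0 and 3 of them at 0. The 10 macrophage markers summed to 135 CPM in G and 45.8 in control, with 0 and 2 of them at 0. The parts of RNA from other cells and of the Foxp3-led cluster in the Bnip3 value were not tested.

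NK cell-like cells of PH had 0 of 7 measured members at least 1.5-fold lower or higher than control, where 20.8% of genes were lower, 16.1% higher and 36.9% either. In G 1 of 7 was lower and 0 higher, where 12.5% of genes were lower, 11.9% higher and 24.4% either. It was Gabarapl1, at 19.5 CPM in G (98 UMIs) and 31.8 in control (50 UMIs), 1.63-fold lower (1.14 to 2.32). It was under 20 CPM in G, so it was measured only through control. The mean of the cells' own CPM took its log2 ratio to -0.36 from -0.71. Median log2 ratios of the members were 0.04 in PH and -0.21 in G, beside -0.08 and -0.04 over all genes.

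The cell classes differed in which members they carried. Levels below cover every library with at least 25 cells of a class, and compare 1 gene between classes, never 1 gene with another. Map1lc3b was highest in neutrophil-like cells, at 1338 CPM in G (835 cells, 1270 to 1409) and 1437 in control (30 cells, 1089 to 1862), which overlap. T cell-like cells followed at 348 to 485 CPM, and fibroblast-like, macrophage-like, NK cell-like, vimentin-high and keratin-high cells overlapped between 203 and 365 CPM. Gabarap had the same highest class, at 1177 CPM in G and 1689.5 in control, and its lowest values in T cell-like (241 to 406 CPM) and NK cell-like cells (242 to 316).

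Fibroblast-like cells differed in their markers between libraries. The 9 fibroblast markers summed to 20529 CPM in GPH, 15779 in PH and 18392 in G, against 3737 in control, and Xist was at 1853, 494 and 624 CPM in those libraries, against 65.8 in control. The 11 ductal markers summed to 1073 CPM in GPH (3 of them at 0), 1040.2 in PH (2 at 0) and 416 in G (2 at 0), against 1311 in control (1 at 0). Cdkn2a was at 44.3 CPM in GPH, 489 in PH, 231 in G and 504 in control. The part of these differences in the member levels of this class was not tested.

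Map1lc3a also varied by class. Fibroblast-like cells had 177 to 211 CPM and vimentin-high cells 100.4 to 176, against 21.9 to 22.7 in keratin-high cells, 25.5 to 47.5 in macrophage-like cells and 10.2 to 47.8 in T cell-like cells. NK cell-like cells lay between at 51.6 to 61.6 CPM, and neutrophil-like cells reached the vimentin-high range, at 57.7 CPM in G and 126 in control. Both keratin-high values lay below all 4 vimentin-high values. Gabarapl1 was at 142 CPM in GPH and 119.8 in PH in fibroblast-like cells, but at 43.2 in G and 48.6 in control, and at 32.9 to 66.7 in vimentin-high cells. It was at 11.2 CPM in neutrophil-like cells of G (12 UMIs), its lowest value. Gabarapl2 ranged from 27.95 CPM in macrophage-like cells of GPH (8 UMIs) to 311 in fibroblast-like cells of control.

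Among the receptors, Optn was at 90.3 CPM in neutrophil-like cells of G (73.2 to 110.1) and 11.3 to 20.5 in keratin-high cells, and at 12.3 or less in every other class apart from control neutrophil-like cells, where 1 UMI gave 25.2 CPM. It was not detected in macrophage-like cells of GPH and fibroblast-like cells of G, where 3 counts would be 10.5 and 11.8 CPM. Sqstm1 was at 328 to 331 CPM in neutrophil-like cells, 186 to 343 in fibroblast-like cells and 118 to 207 in the macrophage-like, T cell-like and NK cell-like classes. Nbr1 was at 30.3 to 41.5 CPM in keratin-high cells and at 28.3 or less in the other classes.

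Bnip3 was lowest in lymphocytes, at 5.12 to 22.2 CPM in T cell-like cells and 4.93 to 12.7 in NK cell-like cells, and at 36.5 to 303 CPM in all other classes. Its highest value was in 30 neutrophil-like cells of control (12 UMIs, 156 to 529 CPM), against 109.8 CPM in G. Bnip3l had no such gap: it was at 123 to 177 CPM in T cell-like cells and 108 to 164 in vimentin-high cells. The class plot sets these levels side by side.

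**Figure D5:**
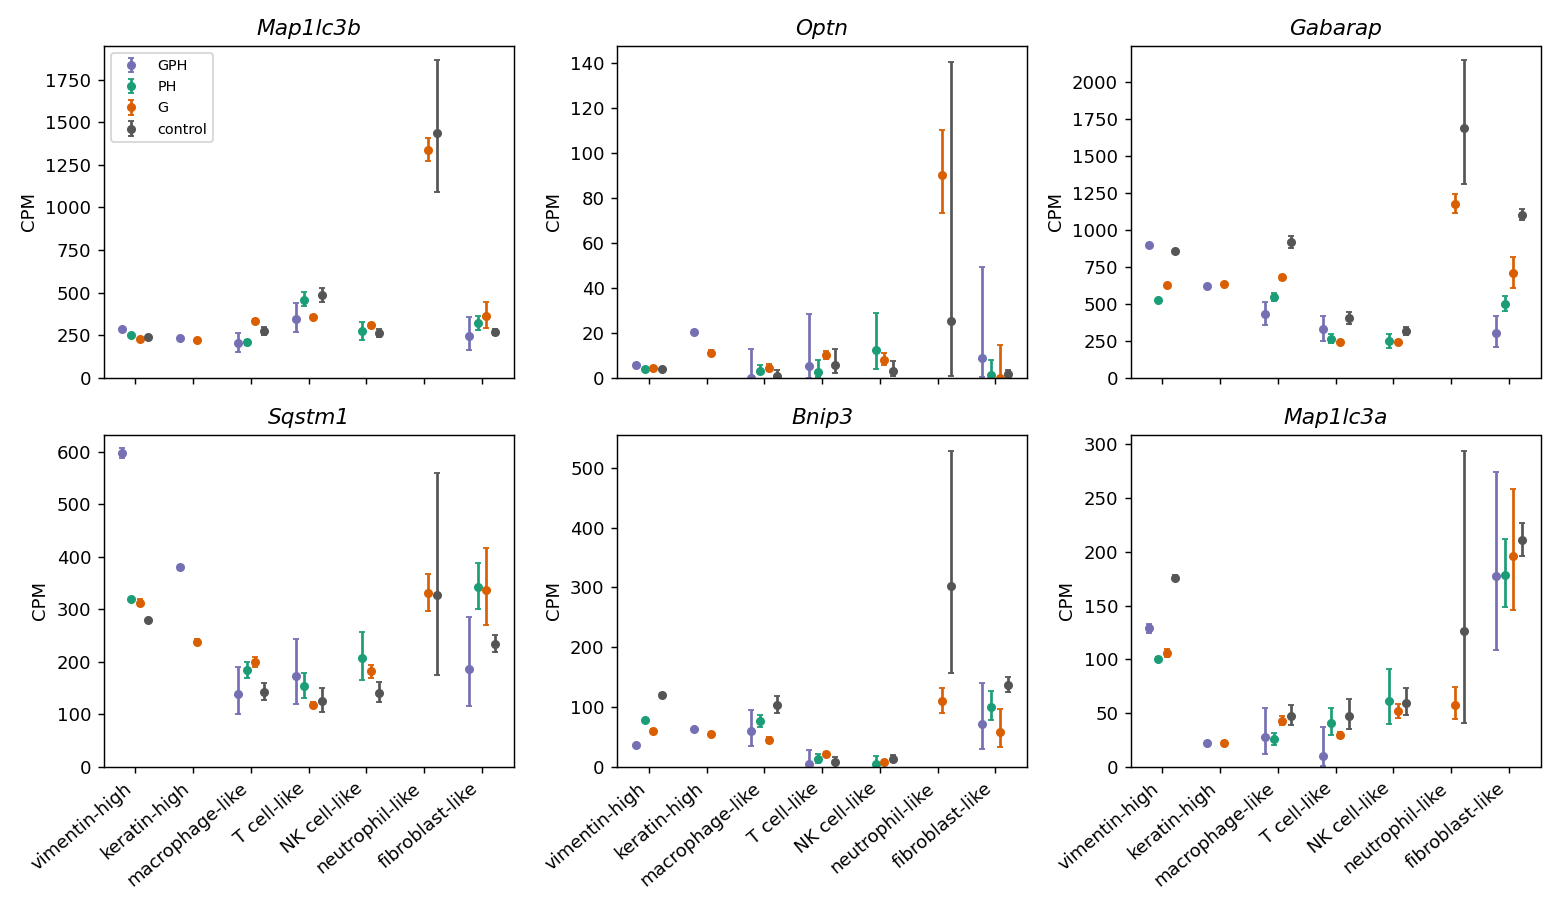
CPM with exact Poisson 95% intervals (counting error only) for 6 members in each class, for libraries with at least 25 cells of the class. Map1lc3b and Optn of G peak in neutrophil-like cells, at 1338 and 90.3 CPM, and Bnip3 is at 22.2 CPM or less in T cell-like and NK cell-like cells.

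Likeness between genes was taken over the 16 points formed by a class and a library with at least 100 cells, as Pearson's r of log2(CPM + 1), and is a description, since points of 1 library share its depth and handling. Among 4157 genes, Sqstm1 was most like Fosb (r = 0.88), followed by Chka, Fosl1, Cebpd and Ash1l. Map1lc3b was most like March7 (0.93), then Rsrp1, Lyst, Trpm7 and Pum2. Gabarapl1 was most like Ncoa7 (0.92), then Cyth3, Zfp91, Ahnak and Ubxn6. Bnip3 was most like Eif4ebp1 (0.94), then Cnih4, Marcks, Gng12 and Ufsp2. Among the members themselves the highest r was between Gabarap and Bnip3 (0.85), and the lowest between Gabarapl1 and Optn (-0.65). The closely related Bnip3 and Bnip3l had an r of -0.01, and Map1lc3a and Map1lc3b also -0.01.

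Some reads could belong to other genes. Bnip3, Bnip3l, Gabarapl2 and Map1lc3b have transcripts of 3, 1, 2 and 13 other genes that match over at least 90 bases at 97% identity or more, so their levels are uncertain to that extent. Exons of 5 members (Map1lc3b, Gabarapl1, Sqstm1, Optn and Bnip3) overlap exons of a gene on the opposite strand, and whether counting used strand is not given in the sources used here.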

How the data were processed

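Single-cell RNA was measured in 4 libraries, 1 per group. What the authors deposited are UMI counts for each gene in each barcode, not normalized. The submitters' processing notes name Cell Ranger 6.1 and mm10; per the file headers the version was 7.0.1. How barcodes were called is not given in the sources used here; the lowest total was 500 UMIs. The 10 members, the gene lists and the classes were chosen with earlier results of these data known.

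Cells had at least 500 UMIs, at least 300 genes and at most 20% mitochondrial UMIs. Scrublet in scanpy 1.11.5 set doublet scores; its own threshold called 7, 1, 0 and 0 in GPH, PH, G and control, so the highest scores were removed at 0.8% per 1000 cells (168, 2056, 1573 and 977 barcodes). All libraries were clustered together without batch correction (2000 variable genes, 30 components, 15 neighbours, Leiden resolution 1.0; igraph 0.11.9, scikit-learn 1.9.0). Classes were made from clusters. Immune clusters had Ptprc at 50 CPM or more. Among the rest with Xist under 50 CPM, those with Krt19 from 1000 CPM were keratin-high, and others with Vim from 2000 CPM were vimentin-high if their depth was no less than 1/3 of the library medians. Other names needed 3 markers.

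UMIs were summed per class and library and divided by the class total (CPM). Ratios needed 100 cells in both libraries, levels 25. A gene was measured at 20 CPM in 1 library and 20 UMIs over both. Ratios carry exact conditional binomial 95% intervals, levels exact Poisson ones and shares Clopper-Pearson ones. They cover counting error only and not variation among animals. For a count of 0, the limit is that of 3 counts. The ratio and its interval were tested on simulated data. All members are named. Of the list genes at least 1.5-fold apart, those of the autophagy steps in vimentin-high cells are named with values; of the NRF2 targets, hypoxia targets and transcription factors, and in the other classes, a part is named, chosen after the values were seen. For likeness a gene needed 20 CPM in 50% of points. Alternatives changed the mitochondrial limit, doublet removal, depth limit, scaling, averaging, clustering, gating and cluster makeup, 11 planned and 3 added after seeing the data. Equal weight took vimentin-high clusters with at least 50 cells in both libraries: 7, or 6 in comparisons of GPH. Dropping the filter on low values cannot change a ratio, so each count of alternatives includes 1 that repeats the main ratio. Other tools were matplotlib 3.10.9, pandas 2.3.3, scipy 1.17.1, numpy 2.4.6 and anndata 0.12.19 under Python 3.11.15.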

Additional observations from a re-analysis of the deposited data

Results flagged for a closer look

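Bnip3 in G against control had opposite directions in different classes: the log2 ratio was 1.34 in T cell-like cells, -0.998 in vimentin-high cells and -1.22 in macrophage-like cells. The difference between classes was not tested, since each group is 1 library. The T cell-like value rests on 314 UMIs in G and 9 in control, and it was -0.35 when each cell was assigned by its own markers.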

How the results depend on the processing

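Of 28 member ratios at 1.5-fold or more, 10 stayed past that size under every alternative run and 26 kept their sign. The exceptions both came from assigning each cell by its own markers: Map1lc3a in macrophage-like cells of PH against control turned to 0.12, and Bnip3 in T cell-like cells of G against control to -0.35. The cause was not tested.

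Counts of members at least 1.5-fold apart that moved by more than 1.5 times are given here; the other counts differed by 1 at most. With vimentin-high clusters at equal weight they were 0 for GPH against PH and 1 for GPH against G (both 4 pooled), and 2 for PH against control (4). Without cluster 2, GPH against G gave 2. Scaling by the median ratio gave 5 for GPH against control in vimentin-high cells (2), 1 for GPH against G in keratin-high cells (2), 0 for PH against control in T cell-like cells (1) and 2 in NK cell-like cells (0). A mitochondrial limit of 10%, a total without mitochondrial, ribosomal and haemoglobin genes, and the mean of the cells' own CPM each gave 1 in keratin-high cells. The mean of the cells' own CPM also gave 1 for macrophage-like cells of PH (2), 2 for T cell-like cells of G (4) and 0 for NK cell-like cells of G (1). The total without those genes gave 3 for NK cell-like cells of PH (0). Without doublet removal the counts were 4 and 3 for macrophage-like cells of PH and G (2 and 1) and 1 for NK cell-like cells of PH. Leiden resolution 0.6 gave 2 for macrophage-like cells of G. Gating by each cell's own markers gave 1 and 4 for macrophage-like cells of PH and G, 2 for T cell-like and 1 for NK cell-like cells of PH. Without a filter on low values, 2 members were apart in macrophage-like cells of G, T cell-like cells of PH, and NK cell-like cells of PH and of G. Adding the T cell-marked cluster led by Trdc gave 0 for T cell-like cells of PH. Optn had no ratio to control in macrophage-like cells gated by their own markers, since control held 0 UMIs.

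No paired analysis was possible because each group is 1 library. Few UMIs limit the immune ratios: that of Bnip3 in T cell-like cells of G rests on 9 UMIs in control, with an interval of 1.31 to 5.57.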
